A study of Homo sapiens with 11 samples.

Results

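The genes described here are CDH1, CDH2, CDH3, EPCAM, VIM, SNAI1, SNAI2, ZEB1, ZEB2 and TWIST1, the classical cadherins and the surface, filament and transcription factor genes by which the epithelial and mesenchymal states of a carcinoma are read. They were picked by name, and all 10 of them were found among the 25590 genes of the count table. All 10 also passed the filter on low counts that left 16630 genes for testing. The RNA came from 11 tumours of PC-3, an androgen-independent human prostate carcinoma cell line, grown under the skin of male athymic nude mice that were 8 weeks old when the cells were injected in matrigel. In the PBS group, 5 tumours (PC3_tumor_123 to PC3_tumor_127) came from mice given phosphate-buffered saline; tumours are called by the names their labels carry. In the A2M* group, 6 tumours (PC3_tumor_128 to PC3_tumor_132 and PC3_tumor_112) came from mice given A2M*, the transformed form of the proteinase inhibitor alpha2-macroglobulin that binds the receptor LRP1, at 5.6 mg per 20 g of body weight, into the peritoneum from day 7 until day 31. All tumours came from this single cell line, and athymic mice lack T cells, so both groups grew without a full immune system. Human reads had been separated from mouse reads before counting.

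Epithelial cells are held together by E-cadherin, which joins neighbouring cells outside and binds catenins inside. In an epithelial-mesenchymal transition, transcription factors of the SNAI, ZEB and TWIST families repress E-cadherin and other junction genes, while vimentin and N-cadherin rise. Many carcinoma cells hold both sets of genes at once, and PC-3 cells are known to do so and to lack alpha-catenin. The miR-200 microRNAs and the ZEB factors repress each other, a loop well known from carcinoma cells. The comparison of A2M* with PBS addresses whether the treatment moved the tumours along this axis.

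The libraries held 16958533 to 35874381 reads counted in genes, so that 3 counts were worth 0.0836 to 0.177 RPM (reads scaled to the size of the library) and each of these genes was far above that in every tumour. Levels of different genes are given as RPKM, the RPM per kilobase of exon, because only a value per length can be set beside that of another gene. Differences between groups come from edgeR's quasi-likelihood test on counts, and CPM are the same kind of scaled counts after TMM normalization. Cytokeratin genes of carcinoma epithelium were high in every tumour (summed RPKM of 5 markers 1132 to 1671), while the prostate lineage genes KLK3 and KLK2 were at 0 or 1 count.

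Both states were read at high level in every tumour. CDH1, which encodes E-cadherin, had 76.8, 84.0, 90.6, 80.8 and 85.4 RPKM in PBS tumours PC3_tumor_123 to PC3_tumor_127. In the A2M* tumours its lowest, median and highest values were 61.4, 77.8 and 84.2 RPKM. The lowest value belonged to A2M* tumour PC3_tumor_131, and the groups overlapped. VIM, the intermediate filament gene of mesenchymal cells, had 232.3, 364.3, 277.7, 291.0 and 319.9 RPKM in PBS tumours PC3_tumor_123 to PC3_tumor_127. Its A2M* tumours ran from 232.0 through a median of 287.4 to 325.0 RPKM. VIM was thus the highest of the 10 genes in all 11 tumours, and PBS tumour PC3_tumor_124 stood at the top of its range. In a bulk tumour, fewer cells with a transcript and less transcript per cell cannot be told apart, so these values do not say whether single cells held both RNAs.

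The balance of CDH1 and VIM was given as the log2 of CDH1 RPKM over VIM RPKM. VIM exceeded CDH1 in 11 of 11 tumours, by 3.03-fold in PBS tumour PC3_tumor_123 to 5.19-fold in A2M* tumour PC3_tumor_131. The log2 balance was -1.82 ± 0.216 (SD, n = 5) in PBS tumours and -1.90 ± 0.305 (SD, n = 6) in A2M* tumours. The difference, A2M* minus PBS, was -0.08 with a standard error of 0.158, smaller than the spread within either group. The lowest 3 balances belonged to A2M* tumour PC3_tumor_131 (-2.38), PBS tumour PC3_tumor_124 (-2.12) and A2M* tumour PC3_tumor_112 (-2.11), and these reached that place by different routes. PBS tumour PC3_tumor_124 had the highest VIM of the series with an ordinary CDH1, whereas A2M* tumour PC3_tumor_131 had the lowest CDH1 with an ordinary VIM.

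**Figure D1:**
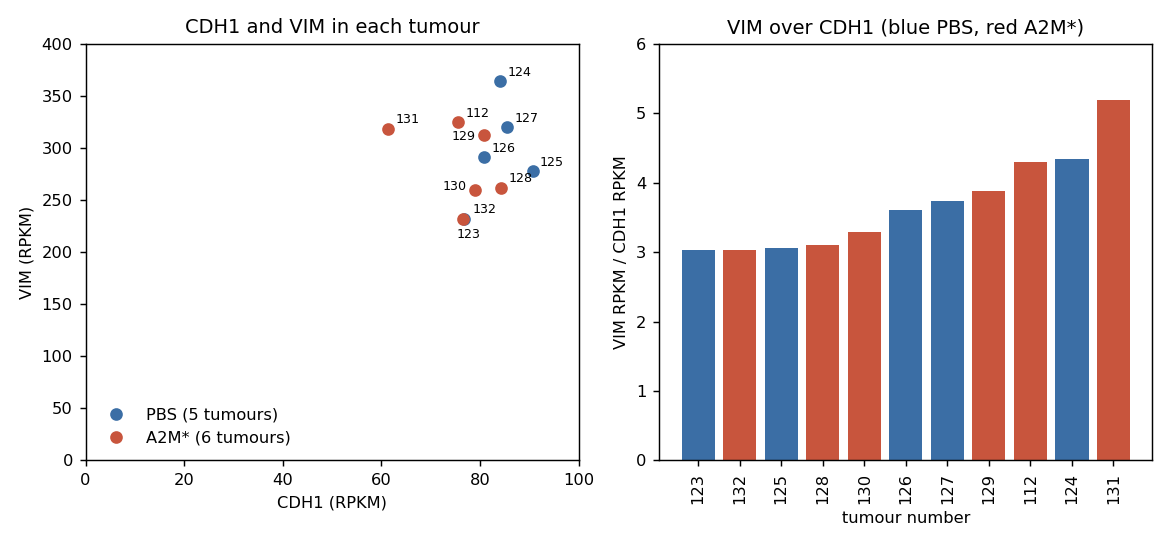
Left, VIM against CDH1 (both RPKM) in each of 11 tumours, each point 1 tumour with the number of its name; PC3_tumor_123 (PBS) and PC3_tumor_132 (A2M*) nearly coincide. Right, VIM RPKM divided by CDH1 RPKM per tumour, in rising order, from 3.03 to 5.19, with both treatments spread along the order.

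The other surface genes of the epithelial state were also read at high level in every tumour. EPCAM, an epithelial adhesion molecule, had 172.2, 150.6, 178.2, 177.2 and 161.6 RPKM in the PBS tumours and 130.8 to 192.3 RPKM, median 166.4, in the A2M* tumours. CDH3, the P-cadherin of basal epithelium, had 46.1, 51.6, 49.2, 43.5 and 49.4 RPKM in PBS tumours and 32.6 to 51.1 RPKM, median 44.8, in A2M* tumours. For both genes the lowest tumour was again A2M* tumour PC3_tumor_131. CDH2, the N-cadherin gene that replaces CDH1 in many mesenchymal cells, was far lower. It had 7.04, 8.59, 7.74, 7.64 and 7.40 RPKM in PBS tumours and 6.08 to 9.98 RPKM, median 8.78, in A2M* tumours. CDH1 exceeded CDH2 6.85-fold to 12.6-fold over the 11 tumours, so each tumour with high VIM still held more CDH1 than CDH2.

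Among the transcription factors, SNAI2 (Slug) was the most abundant. It had 30.2, 42.8, 22.9, 40.3 and 30.2 RPKM in the PBS tumours, and its A2M* tumours ran from 21.8 through a median of 39.9 to 63.5 RPKM. The highest value was that of A2M* tumour PC3_tumor_131. TWIST1 lay at 4.99 to 6.62 RPKM over all 11 tumours, the narrowest range of the 10 genes (1.33-fold). SNAI1 (Snail) was low, with 0.886 to 1.66 RPKM and 35 to 94 counts per tumour. ZEB2 was the lowest, with 0.175 to 0.350 RPKM and at least 50 counts in each tumour. ZEB1 ranged most widely, and its values are given further on. In order of median RPKM the genes ran VIM (291.0), EPCAM (172.2), CDH1 (80.7), CDH3 (46.1), SNAI2 (38.6), CDH2 (7.74), TWIST1 (5.43), ZEB1 (4.02), SNAI1 (1.21) and ZEB2 (0.235). Of the 9 neighbouring pairs in that order, 5 did not overlap in range, and 4 did: CDH3 with SNAI2, CDH2 with TWIST1, TWIST1 with ZEB1, and ZEB1 with SNAI1.

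**Figure D2:**
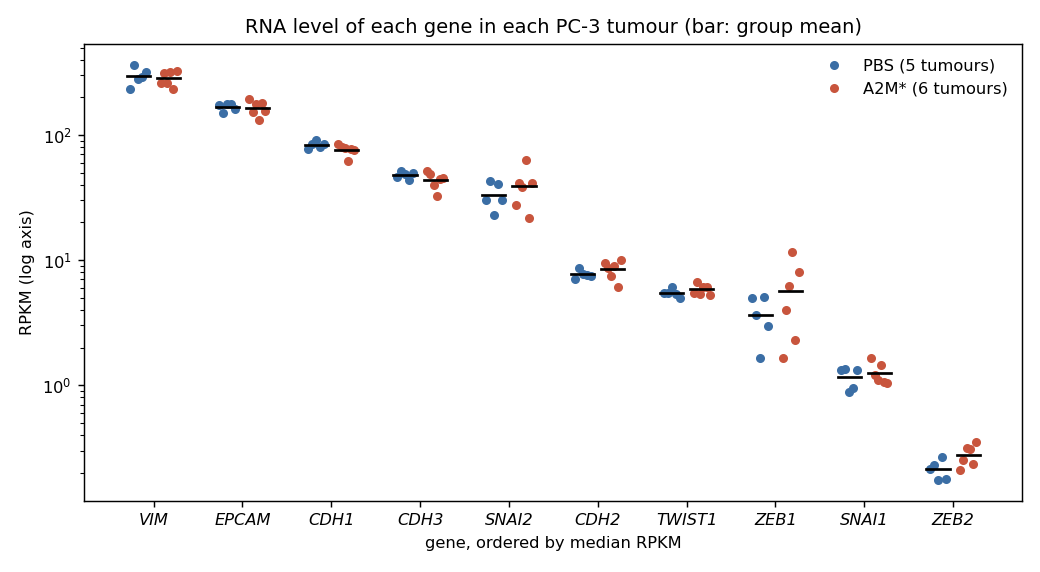
RPKM (log axis) of each gene in each tumour, genes ordered by median. Points are tumours, blue for PBS (5) and red for A2M* (6), and bars are group means. ZEB1 spans 1.64 to 11.6 RPKM, the widest range, and TWIST1 4.99 to 6.62, the narrowest.

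E-cadherin works through the catenins, and the 8 adherens junction partners were read beside it. VCL (vinculin), CTNNB1 (beta-catenin) and JUP (plakoglobin) averaged 163.3, 116.1 and 47.5 RPKM. CTNNA1, the alpha-catenin that ties the complex to actin, had 10 to 30 counts per tumour, 0.165 RPKM on average. CTNNA2, its neuronal relative, had 0 to 2 counts and was not tested, and CTNNA3 averaged 0.879 RPKM. The tumours therefore held CDH1 and CTNNB1 RNA at high level with almost no CTNNA1. CTNND1 (p120-catenin) averaged 0.685 RPKM and CTNND2 0.624 RPKM. The CTNND1 value is uncertain, because 2 other annotated genes share its exons on the same strand, and how reads in shared exons were assigned is not given in the sources used here. TMX2-CTNND1, a readthrough gene of that locus, was listed at 0 counts in every tumour.

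None of the 10 genes passed the test between A2M* and PBS. At an adjusted p under 0.01, edgeR's quasi-likelihood test called 0% of the 16630 genes, and 1178 genes had an unadjusted p under 0.05. DESeq2 called 1 gene, which is not among the 10. None of the 10 genes separated the groups without overlap in CPM, against 0.71% of all genes tested. CDH1 had 409.6 ± 33.96 CPM (SD, n = 5) in PBS tumours and 362.5 ± 40.27 (SD, n = 6) in A2M* tumours. Its log2 fold change was -0.18 (SE 0.0878, 95% interval -0.37 to 0.01, edgeR adjusted p = 0.729). CDH3 had a log2 fold change of -0.18 (95% interval -0.41 to 0.05) and EPCAM one of -0.07 (-0.27 to 0.13). The intervals of these epithelial genes reach down to -0.41 for CDH3 and up to 0.13 for EPCAM.

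The mesenchymal genes and the repressors did not pass the test either. VIM had a log2 fold change of -0.11 (95% interval -0.38 to 0.17) and CDH2 one of 0.09 (-0.17 to 0.35). TWIST1 differed by 0.04 (-0.15 to 0.24), SNAI1 by 0.06 (-0.31 to 0.43) and SNAI2 by 0.19 (-0.31 to 0.68). ZEB2, a relative of ZEB1, was the one gene of the 10 with an unadjusted p under 0.05. It had 2.51 ± 0.434 CPM (SD, n = 5) in PBS and 3.21 ± 0.622 (SD, n = 6) in A2M* tumours, a log2 fold change of 0.36 (95% interval 0.02 to 0.70, edgeR unadjusted p = 0.0407, adjusted p = 0.698). Of all genes tested, 3.55% were higher in A2M* at that unadjusted threshold. ZEB1 had the largest estimate of the 10, a log2 fold change of 0.59, with an interval of -0.34 to 1.51 (edgeR adjusted p = 0.841). Without A2M* tumours PC3_tumor_131 and PC3_tumor_112 together, its 2 highest, the ZEB1 estimate was -0.10. These 2 were chosen after the ZEB1 values had been seen, and from the A2M* group only, so the estimate was bound to fall.

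**Figure D3:**
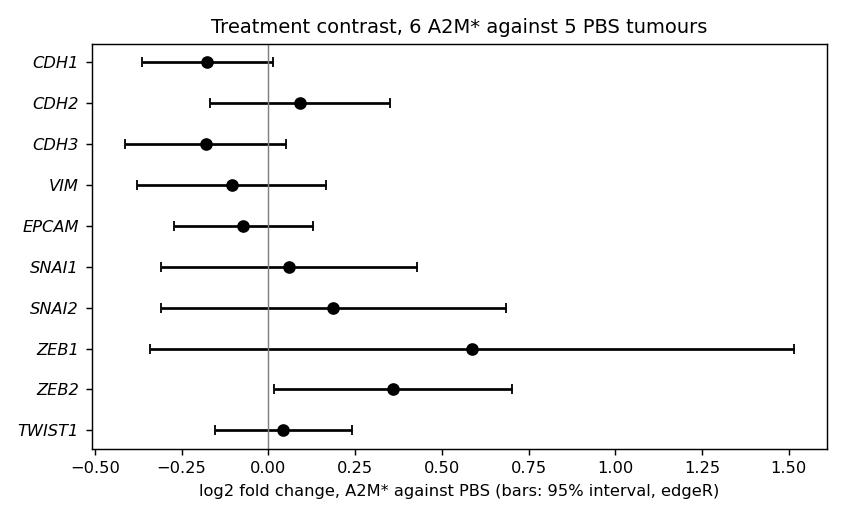
Log2 fold change of each gene, A2M* (6 tumours) against PBS (5 tumours), with 95% intervals from edgeR. All intervals but that of ZEB2 (0.02 to 0.70) include 0, and that of ZEB1 (-0.34 to 1.51) is the widest.

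In wider lists of the same biology, no gene was called between the groups. Of 30 epithelial junction and surface genes, 26 were lower in A2M* and 4 higher, beside 8410 lower and 8220 higher of all 16630 genes tested. The median log2 difference of the list was -0.13, beside -0.002 over all genes tested. Markers of fibroblasts and pericytes stood the other way, with 6 of the 6 tested higher in A2M* (median log2 difference 0.35). Of these, 2 had an unadjusted edgeR p under 0.05, beside 3.55% of all genes higher at that threshold, and 0 were called. DCN (0 to 3 counts) and LUM (2 to 5 counts) were not tested. These are reads classed as human, whereas the stroma of the xenografts is mouse. The part of these markers in the values of the junction genes was not tested. KRT19, KRT18 and KRT8, keratins of simple epithelia and the list's genes of highest mean RPKM, had log2 fold changes of -0.21, -0.08 and -0.14. PRSS8, a membrane serine protease of epithelia, had the smallest p of the list, with a log2 fold change of -0.35 (edgeR unadjusted p = 0.0271, adjusted p = 0.648). Of 27 mesenchymal genes tested, 17 were higher and 10 lower (median 0.02). MMP14, a matrix protease, and TNC, a matrix protein, stood at 0.08 and -0.02. LOX, which cross-links collagen, had the smallest p and a log2 fold change of -0.42 (edgeR adjusted p = 0.640).

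No gene among the remaining regulators and cadherins passed. Of 10 epithelial state regulators, 6 were lower and 4 higher (median -0.09). The 3 most abundant were ESRP1, an epithelial splicing factor (53.8 RPKM), ELF3 (25.8) and GRHL2 (19.1), both transcription factors of epithelia, while ELF5, with 3 to 20 counts, had the smallest p. Of 9 other EMT transcription factors tested, 7 were higher, with SOX9 at 37.4 RPKM and TCF3 at 21.5. SOX9 had the smallest p of that list, with a log2 fold change of 0.21 (edgeR unadjusted p = 0.0135, adjusted p = 0.640). Of the 12 other cadherins tested, 5 were higher and 7 lower (median -0.10). Mesenchymal cadherin-11 (CDH11) led them at 11.2 RPKM, before CDH24 (6.05) and CDH26 (0.957), and CDH15, with 15 to 54 counts, had the smallest p (log2 fold change 0.78, edgeR adjusted p = 0.640). Among the catenins and their partners, CTNND2 alone had an unadjusted p under 0.05 (log2 fold change 0.33, edgeR unadjusted p = 0.0485, adjusted p = 0.700).

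Of the 10 genes, ZEB1 varied most between tumours. Its values were 5.01, 3.66, 1.64, 5.06 and 2.96 RPKM in PBS tumours PC3_tumor_123 to PC3_tumor_127. The A2M* tumours ran from 1.66 through a median of 5.09 to 11.6 RPKM. The highest were A2M* tumours PC3_tumor_131 (11.6) and PC3_tumor_112 (8.06), and the lowest were PBS tumour PC3_tumor_125 (1.64) and A2M* tumour PC3_tumor_128 (1.66), so low tumours occurred in both groups. The range was 7.06-fold, with 326 to 1995 counts per tumour. On the log2 CPM scale its SD over the 11 tumours was 0.883, larger than that of 99.7% of the genes tested, beside a median SD of 0.188. SNAI2 followed among the 10 genes with an SD of 0.447, and CDH1 (0.172) and TWIST1 (0.122) were below the median gene. ZEB1 spans chr10:31607424-31818742 on the plus strand of GRCh37. All of the 10 genes but EPCAM and SNAI1 overlap an exon of an antisense gene, and because the library kit did not mark strand, reads of such partners cannot be told apart. For ZEB1 the partner is ZEB1-AS1, and ZEB1 and ZEB1-AS1 had a Pearson r of 0.19 (Spearman rho 0.13, permutation p = 0.564 and 0.715, adjusted over 5 relations 0.564 and 0.715). ZEB1 had an r of -0.24 with the total count of the library (rho -0.41, permutation p = 0.482 and 0.213, adjusted 0.564 and 0.355).

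All 45 pairs of the 10 genes were compared over the 11 tumours, as log2 CPM. At a permutation p adjusted over the 45 pairs of under 0.05, 5 pairs passed by Pearson r, 3 positive and 2 negative. Without A2M* tumour PC3_tumor_131, which had the highest ZEB1 and SNAI2 and the lowest CDH1, CDH3 and EPCAM, none of the 45 passed, and 1 passed without PBS tumour PC3_tumor_125 or without A2M* tumour PC3_tumor_112. The r values of the 5 pairs kept their sign without any 1 tumour. CDH1 and CDH3 moved most closely together, with r = 0.91 (permutation p = 0.0003, adjusted 0.0135) and rho = 0.88 (permutation p = 0.00076, adjusted 0.0342). With A2M* tumour PC3_tumor_131 left out r was 0.76, and it was 0.79 without the 2 tumours farthest from the median and 0.89 with the group means subtracted. CDH1 and CDH3 are neighbours on the plus strand of chromosome 16 in GRCh37, CDH3 at chr16:68670092-68761371 and CDH1 at chr16:68771195-68869440, with 9823 bases between them. Over 15024 genes ranked by r with CDH1, CDH3 ranked 27, behind genes that included BACE2 (r = 0.97) and BAIAP2L1 (0.96), and ZEB1 ranked 14640.

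The other 4 pairs joined the repressors to each other and set them against EPCAM. SNAI2 and ZEB1 had r = 0.84 (permutation p = 0.00125, adjusted 0.0281; rho = 0.74, permutation p = 0.0131, adjusted 0.118). ZEB1 and ZEB2 had r = 0.80 (permutation p = 0.00357, adjusted 0.0321) and rho = 0.85 (permutation p = 0.00178, adjusted 0.0401). Both kept r at 0.75 and 0.82 without the 2 tumours farthest from the median, and at 0.84 and 0.85 with group means subtracted. EPCAM was lower where SNAI2 was higher, with r = -0.82 (permutation p = 0.00192, adjusted 0.0288; rho = -0.79, permutation p = 0.00549, adjusted 0.0824). EPCAM and ZEB1 had r = -0.77 (permutation p = 0.00347, adjusted 0.0321; rho = -0.65, permutation p = 0.0377, adjusted 0.165). Without the 2 farthest tumours EPCAM had r = -0.69 with SNAI2 and -0.49 with ZEB1, so the second relation rests on those tumours. With group means subtracted the values were -0.82 and -0.75. Over 15024 genes ranked by r with ZEB1, highest first, SNAI2 ranked 305, ZEB2 506 and EPCAM 14552. That ranking was made after the values had been seen. Many other genes thus had a higher r with ZEB1 than SNAI2 and ZEB2, or a lower one than EPCAM. The 3 relations with ZEB1 are therefore not particular to these genes, though the genes lay toward the ends of that ranking. No such ranking was made for SNAI2.

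CDH1 itself had r = -0.73 with ZEB1, which missed the threshold over 45 pairs (permutation p = 0.00785, adjusted 0.0589; rho = -0.64, permutation p = 0.0403, adjusted 0.165). That r fell to -0.38 without the 2 tumours farthest from the median. CDH1 and VIM, which the textbook axis sets against each other, had r = 0.20 and rho = 0.33 (permutation p = 0.566 and 0.329, adjusted 0.790 and 0.694). Their r was 0.69 without the 2 farthest tumours, where an exact permutation test gave an unadjusted p of 0.0451, -0.03 with scaling by library size alone, and 0.10 with group means subtracted, so no relation between them holds over these choices. VIM had r = 0.68 with CDH2 (permutation p = 0.0223, adjusted 0.112; rho = 0.68, permutation p = 0.0259, adjusted 0.165). With group means subtracted that r was 0.745 (permutation p = 0.0036, adjusted 0.0480). It was 1 of the 4 pairs that passed the threshold under that setting. The genes most like VIM were CLMP (r = 0.96), ITFG1 and APLP2 (both 0.94) among 15024. TWIST1 and SNAI1 entered none of the 5 pairs.

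**Figure D4:**
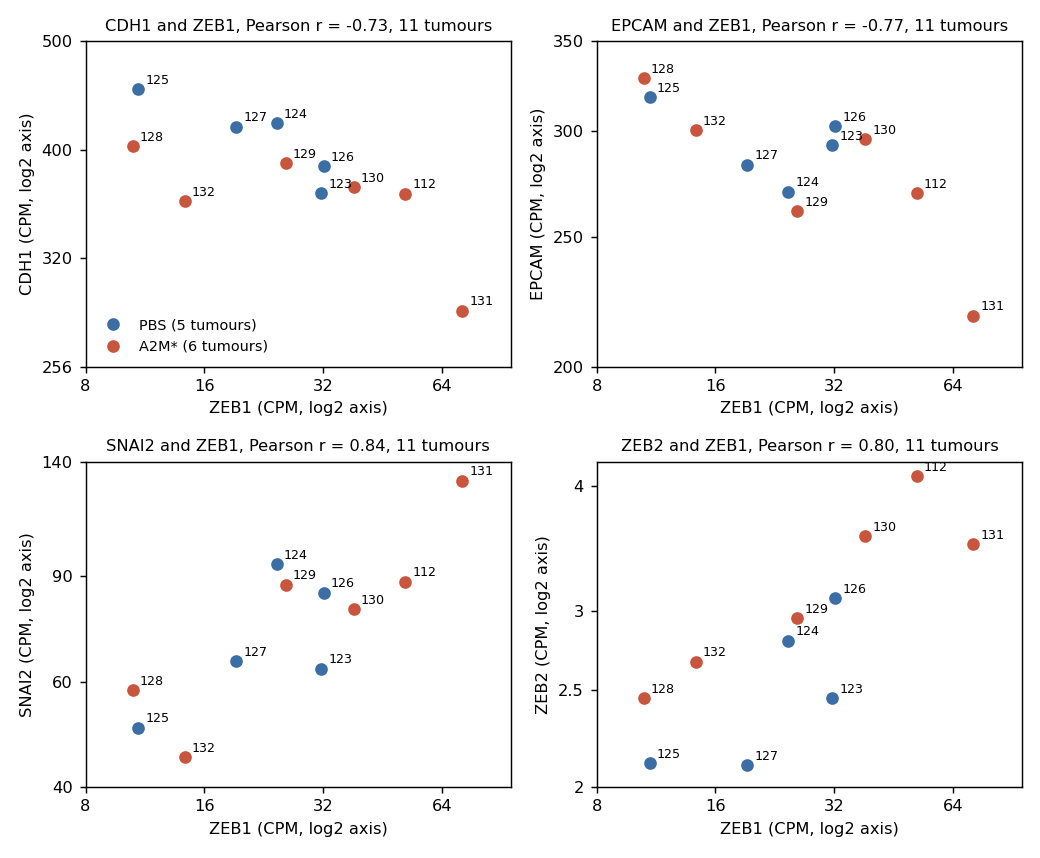
CDH1, EPCAM, SNAI2 and ZEB2 against ZEB1, all in CPM on log2 axes, each point 1 of 11 tumours with its number, blue for PBS and red for A2M*. CDH1 (r = -0.73) and EPCAM (-0.77) are lowest and SNAI2 (0.84) highest in A2M* tumour PC3_tumor_131, at the right edge, and ZEB2 (0.80) is highest in A2M* tumour PC3_tumor_112.

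Because ZEB1 varied so widely, every gene was also fitted on log2 ZEB1 CPM together with the treatment term, a fit added after the spread of ZEB1 had been seen. The slope is the log2 change of a gene per doubling of ZEB1. At an adjusted p under 0.01, edgeR's quasi-likelihood test called 1.1% of 16629 genes higher with ZEB1 (183) and 0.313% lower (52). Of the other 9 genes only SNAI2 was called, with a slope of 0.43 (SE 0.0811, adjusted p = 0.00944), and it passed in 2 of the 11 fits that each left out 1 tumour. ZEB2 had a slope of 0.25 (adjusted p = 0.0470), EPCAM -0.13 (0.0763), CDH1 -0.12 (0.0937), CDH3 -0.15 (0.0976) and VIM 0.09 (0.482). A doubling of ZEB1 thus went with higher SNAI2, while CDH1, CDH3 and EPCAM sloped down without passing the threshold.

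The junction genes beyond the cadherins sloped further. Of 30 epithelial junction and surface genes, 8 were lower with ZEB1 and 0 higher, and 28 of 30 slopes were below 0 (median -0.20, beside -0.001 over all genes). They were the tight junction genes CLDN4 (slope -0.28), CLDN7 (-0.30) and OCLN (-0.23), the polarity gene CRB3 (-0.27), the trafficking gene RAB25 (-0.20), the membrane proteases ST14 (-0.29) and PRSS8 (-0.28), and their inhibitor SPINT2 (-0.26). These 8, like the called genes named next, were singled out after their values were seen. Of 27 mesenchymal genes, 5 were higher, among them SPARC (0.43), FBN1 (0.66), FAP (0.90) and CDH11 (0.48), genes of matrix, proteolysis and mesenchymal adhesion. TCF4, an E-protein transcription factor, was called among the other EMT transcription factors (0.48), and none of the 10 epithelial state regulators was called, though 10 of 10 sloped below 0 (median -0.24). Among the catenins none was called, and JUP sloped by -0.21 (edgeR adjusted p = 0.0302).

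These calls depended on the tumour of highest ZEB1. Without A2M* tumour PC3_tumor_131, 17 genes were called higher and 0 lower, and 1 gene of the mesenchymal list and 0 of the epithelial junction list were among them. Without it the slopes of the 30 junction genes still lay below 0 in 28, with a median of -0.17, and SNAI2 sloped by 0.37 (SE 0.0971, adjusted p = 0.0825). Markers of other cell types were read beside these results. The summed RPKM of 8 fibroblast and pericyte markers ranged from 54.9 to 113.3 in PBS and from 54.8 to 156.8 in A2M* tumours, with r = 0.53 with ZEB1. In that list 6 of 8 markers averaged below 1 RPKM, DCN had 0 to 3 counts, and COL1A1, at 89.0 RPKM, made up most of the sum. The 5 endothelial markers summed to 3.44 to 5.31 RPKM (r = -0.02) and the 6 leukocyte markers to 12.2 to 16.8 RPKM (r = 0.40), the latter mostly CD68. The 5 epithelial markers had r = -0.82 with ZEB1. The part of these markers in the relation to ZEB1 was not tested.

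SNAI and ZEB proteins are known to bind the E-box CAGGTG, or CACCTG on the other strand. In the RefSeq promoter table (GRCh38.p14), CDH2, VIM, ZEB1 and ZEB2 were listed among the 10 genes. Of the 8 junction genes lower with ZEB1, 5 were listed, with 7 starts between them, and 5 of these starts held a CAGGTG or CACCTG within 250 bases before to 50 after the start. For the whole junction list it was 14 of 27 starts (51.9%, 18 genes), beside 20.6% of all 35116 starts. CRB3 and CLDN7 held the most, and their 250 bases before the start are shown for that reason, with each E-box in capitals. CRB3 is at chr19:6464021-6464270 on the plus strand and CLDN7 at chr17:7262479-7262728 on the minus strand, and a second listed start of CLDN7 held none.
CRB3: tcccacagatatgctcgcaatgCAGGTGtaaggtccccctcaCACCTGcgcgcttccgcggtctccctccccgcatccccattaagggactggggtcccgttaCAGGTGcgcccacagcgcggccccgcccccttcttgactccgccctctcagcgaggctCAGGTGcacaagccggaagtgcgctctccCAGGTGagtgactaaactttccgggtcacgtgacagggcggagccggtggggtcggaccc
CLDN7: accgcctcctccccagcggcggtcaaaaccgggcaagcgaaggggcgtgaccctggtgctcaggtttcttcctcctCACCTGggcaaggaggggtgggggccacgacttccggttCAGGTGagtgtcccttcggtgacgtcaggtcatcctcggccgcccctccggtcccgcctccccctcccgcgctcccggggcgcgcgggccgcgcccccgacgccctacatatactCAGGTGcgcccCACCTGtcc
The letters are a description of these windows, and no binding was measured.

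The miR-200 family represses ZEB1 and ZEB2 through sites in their 3' untranslated regions. Its mature sequences fall into 2 seed groups, and they are shown because the sites below pair with these seeds. Capitals mark the seed, bases 2 to 8, and the sequences are those of RefSeq (GRCh38.p14).
hsa-miR-200b-3p: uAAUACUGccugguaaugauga
hsa-miR-200c-3p: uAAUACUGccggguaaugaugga
hsa-miR-429: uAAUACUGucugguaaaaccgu
hsa-miR-200a-3p: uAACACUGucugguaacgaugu
hsa-miR-141-3p: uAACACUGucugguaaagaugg
Seed AAUACUG was shared by miR-200b, miR-200c and miR-429, and seed AACACUG by miR-200a and miR-141. The match to the first seed (CAGTATT, on the transcript strand) occurred 6 times and the match to the other (CAGTGTT) 3 times in the 2540 bases of the ZEB1 3' untranslated region, and 5 and 4 times in the 5370 bases of that of ZEB2. Of the 4487 canonical regions of at least 2540 bases, ZEB1 among them, 48.9% held at least 1 match in their first 2540 bases. Only 2 regions held at least the 9 of ZEB1 there, those of ZEB1 and ZEB2. The matches of ZEB2 lay at positions 208 to 1825 of its region. The first site of each seed in each gene is shown, from GRCh37, with the bases that match the seed in capitals. The sites of ZEB1 are at chr10:31816547-31816568 and chr10:31816960-31816981, and those of ZEB2, on the minus strand, at chr2:145146619-145146640 and chr2:145146803-145146824.
ZEB1, first seed: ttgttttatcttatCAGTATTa
ZEB1, other seed: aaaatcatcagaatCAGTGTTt
ZEB2, first seed: gcactaccatacatCAGTATTt
ZEB2, other seed: gcaaaaattttgtaCAGTGTTa

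Reads on the hairpin genes of MIR200A, MIR200B and MIR429, which lie together on chromosome 1, were few, with 1 to 19 counts per gene and tumour. They are reads of long RNA libraries over these genes, not of mature microRNA, and were taken up after the ZEB1 values had been seen. Summed over the 3 genes they came to 0.837, 0.524, 1.34, 0.422 and 1.37 RPM in PBS tumours PC3_tumor_123 to PC3_tumor_127. In the A2M* tumours the sum was lowest in tumour PC3_tumor_112, at 0.311 RPM, and highest in tumour PC3_tumor_128, at 1.32 RPM. The 3 tumours highest in ZEB1 (PC3_tumor_131, PC3_tumor_112 and PC3_tumor_130) had 0.446, 0.311 and 0.389 RPM, and the 3 lowest in ZEB1 (PC3_tumor_125, PC3_tumor_128 and PC3_tumor_132) had 1.34, 1.32 and 1.30 RPM. ZEB1 and the sum had r = -0.85 (permutation p = 0.00108, adjusted over 5 relations 0.0054) and rho = -0.85 (permutation p = 0.00143, adjusted 0.00715). The r was -0.86 without the 2 tumours farthest from the median and -0.84 with group means subtracted. Where the sum would rank among all genes by r with ZEB1 was not tested. EPCAM, at r = -0.77 with ZEB1, ranked 14552 of 15024 genes, highest first, so other genes had r values lower still. MIR200C and MIR141, the members on chromosome 12, had 0 counts in every tumour.

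**Figure D5:**
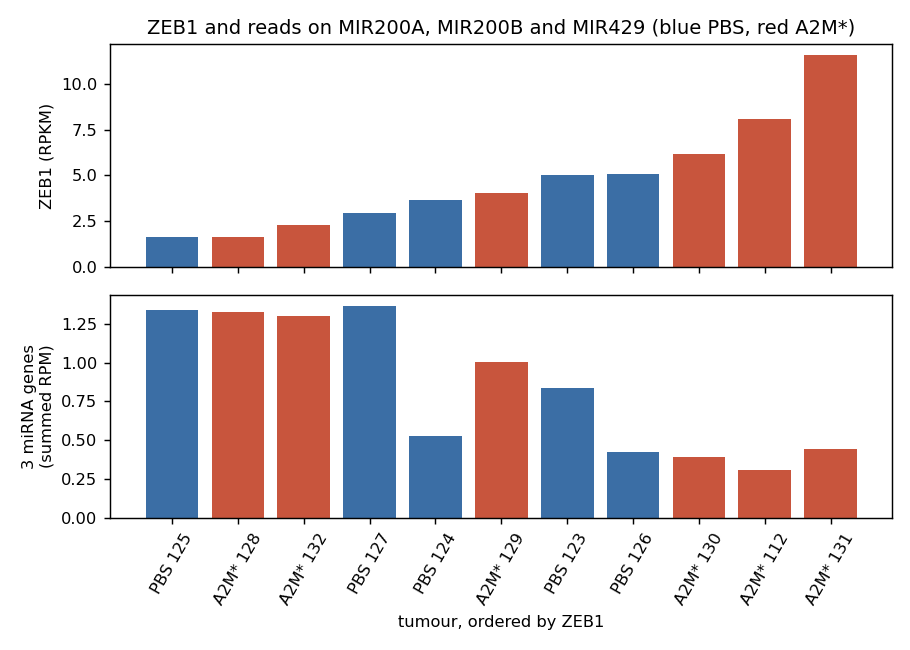
ZEB1 RPKM (top) and the summed RPM of MIR200A, MIR200B and MIR429 (bottom) in each tumour, ordered by ZEB1, blue for PBS and red for A2M*. The tumours with the lowest ZEB1 (PC3_tumor_125, PC3_tumor_128 and PC3_tumor_132) have 1.30 to 1.34 RPM, and the 3 with the highest 0.311 to 0.446 RPM.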

How the data were processed

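Per the study's methods and the submitters' processing notes, reads of PC-3 xenograft tumours (TruSeq RNA kit v2, single reads, HiSeq2500) were extracted with bcl2fastq 1.8.4, divided into human and mouse with xenome, mapped with TopHat2 to hg19 with RefSeq genes and counted with featureCounts. The authors deposited raw counts, RPM and RPKM per gene; RPM equalled the counts scaled to the column total within 4.99e-07. Mouse reads taken for human would enter these values.

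Counts were tested with edgeR 4.0.16 (R 4.3.3; TMM, filterByExpr, quasi-likelihood test, Benjamini-Hochberg adjustment over all genes kept, threshold 0.01), with DESeq2 1.42.0 as an alternative. TMM factors ran from 0.958 to 1.03 and the common biological coefficient of variation was 13.9%. The fit was tested on simulated counts. Log2 CPM for correlations used a prior count of 2; permutation p-values are two-sided with 100000 resamples. The p-values weigh a difference or relation against the spread between these 11 tumours. Levels across genes used the deposited RPKM, without a test. The members and gene lists were chosen with earlier results of these data known. Named beside the 10 genes were all adherens junction partners, the 3 genes of highest mean RPKM and the gene of smallest p of each other list, and the 3 genes most correlated with CDH1 and with VIM; some genes that this rule names are not reported here. Gene positions and untranslated regions are from GENCODE on GRCh37. Alternatives were other normalizations, no filter or a minimum of 10 counts, Spearman's rho, group means subtracted, and each tumour left out.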

Additional observations from a re-analysis of the deposited data

Results flagged for a closer look

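The CDH1 level of A2M* tumour PC3_tumor_131, 287.1 CPM, stood apart from the other 5 A2M* tumours, which lay between 359.7 and 403.1 CPM. Its gap to the nearest of them was 0.626 of the group's range, just past Dixon's 95% critical value of 0.625 for 6 samples. Of 22 groups of values searched this was the 1 set apart, and chance gives 1.1. The same tumour had the highest ZEB1 and SNAI2 and the lowest CDH3 and EPCAM. With each tumour left out in turn, the log2 fold change of CDH1 ran from -0.21 to -0.12.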

How the results depend on the processing

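DESeq2 called 1 gene between the groups (adjusted p = 0.00308), where edgeR called 0 under every alternative run, each left-out tumour included. None of the 10 genes passed under any alternative. The log2 fold change of SNAI1 ran from -0.050 to 0.13 with 1 tumour left out, and that of ZEB1 was -0.096 without A2M* tumours PC3_tumor_131 and PC3_tumor_112, an alternative chosen after seeing the data. The difference in the CDH1 and VIM balance ran from -0.157 to 0.0134. The number of pairs that passed ran from 0 to 6 with 1 tumour left out and was 2 by Spearman's rho, and the correlation of CDH1 and VIM was -0.030 with library size alone and 0.69 (exact permutation p = 0.0451) without the 2 farthest tumours. Calls on ZEB1, all added after seeing the data, numbered 1174 at an adjusted p under 0.05 and 17 to 397 with 1 tumour left out (87 without PBS PC3_tumor_125, 79 without A2M* PC3_tumor_132, 137 without A2M* PC3_tumor_112, 141 without A2M* PC3_tumor_129 and 397 without A2M* PC3_tumor_128). The slope of CDH2 on ZEB1 ran from -0.033 to 0.14 and that of SNAI1 from -0.11 to 0.14. Correlations of the 5 pairs with 1 tumour left out ran from 0.76 to 0.94 (CDH1 and CDH3), -0.87 to -0.69 (EPCAM and SNAI2), -0.82 to -0.64 (EPCAM and ZEB1), 0.76 to 0.88 (SNAI2 and ZEB1) and 0.75 to 0.86 (ZEB1 and ZEB2). With library size alone EPCAM and ZEB1 had an adjusted permutation p of 0.0943, and with group means subtracted EPCAM had 0.0639 with SNAI2 and 0.112 with ZEB1. What caused these shifts was not tested. Low counts, from 50 per tumour for ZEB2 and 1 to 19 for the miR-200 genes, limit their precision. No paired analysis was possible because the groups share no tumour numbers.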
